A study of Mus musculus with 12 samples.

Results

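The Krüppel-like factors are a family of DNA-binding proteins, and 10 of their genes were described here: Klf2, Klf3, Klf4, Klf6, Klf7, Klf9, Klf10, Klf11, Klf13 and Klf16. They were taken by gene name from the deposited count tables, where all 10 were found among 52636 genes. Bone marrow cells came from C57BL/6 J mice aged 8 to 12 weeks, and neutrophils or monocytes were isolated from them with enrichment kits. Neutrophils were treated at once, in RPMI, with 1 nM calcitonin gene-related peptide (CGRP, a neuropeptide released by pain-sensing nerve endings) or with PBS as the saline control, for 4 h. Monocytes were first kept for 3 days in DMEM/F12 with M-CSF at 10 ng/ml, the growth factor of the macrophage lineage, and then received 1 nM CGRP or saline for 4 h; they are called macrophages below, and monocyte/macrophage in the sample labels. No transgene or deletion is named for these cells. Each of the 4 groups had 3 libraries, 12 in all, with totals from 2002559 to 3631989 counts. Nothing in the labels says whether the 3 libraries of a group came from separate mice, so p-values measure the spread between these libraries, which may be technical.

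Krüppel-like factors bind GC boxes and CACCC boxes with zinc fingers at the end of the protein, and the rest of the protein decides whether they activate or repress. KLF2, KLF4, KLF6 and KLF7 are known mainly as activators, KLF3 as a repressor that works through CtBP proteins, and KLF9, KLF10, KLF11, KLF13 and KLF16 as factors that can recruit the SIN3 repressor complex. In myeloid cells, KLF4 is known for its part in monocyte differentiation, KLF2 for restraining inflammatory gene expression and KLF6 for working with NF-κB in macrophages. Several of these genes are immediate early genes, whose transcripts are short-lived. CGRP acts through a receptor made of CALCRL and RAMP1 that raises cyclic AMP. Cyclic AMP acts on transcription in part through CREB, which binds the cyclic AMP response element (CRE).

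After CGRP, 1 of the 9 genes tested in neutrophils and 1 of the 10 tested in macrophages was called. Among all genes tested, 1.02% were called lower and 1.51% higher in neutrophils, and 3.97% lower and 3.46% higher in macrophages. Klf4 fell in neutrophils and Klf6 fell in macrophages, and the sequences just upstream of these genes are shown because both genes carry the result. The genes lie on chromosome 4 at 55527143 to 55532466, minus strand (Klf4), and on chromosome 13 at 5861482 to 5870394, plus strand (Klf6), in GRCm38 with GENCODE release 21 of the mouse annotation. The sequences end at the base before the RefSeq start (Klf4, chr4:55532476-55532725, minus strand, 250 bases) or before the first exon of the GENCODE gene (Klf6, chr13:5861239-5861481, plus strand, 243 bases). They are RefSeq promoter sequences of GRCm38.p6, written 5′ to 3′ on the strand of the gene. Capitals mark matches to any of the motifs searched, on either strand.
Klf4: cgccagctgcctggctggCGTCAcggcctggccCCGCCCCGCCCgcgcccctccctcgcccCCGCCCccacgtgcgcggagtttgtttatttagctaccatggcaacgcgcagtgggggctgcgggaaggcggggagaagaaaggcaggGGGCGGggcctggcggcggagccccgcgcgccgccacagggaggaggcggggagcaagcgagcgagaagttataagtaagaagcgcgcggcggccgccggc
Klf6: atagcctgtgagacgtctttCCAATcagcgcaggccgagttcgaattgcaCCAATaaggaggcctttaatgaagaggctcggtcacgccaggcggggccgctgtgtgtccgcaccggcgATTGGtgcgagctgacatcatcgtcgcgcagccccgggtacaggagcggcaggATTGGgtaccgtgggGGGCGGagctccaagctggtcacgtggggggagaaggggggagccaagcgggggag

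The motifs searched were the full CRE (TGACGTCA), its core (TGACG), the CACCC box (CACCC), the GC box (GGGCGG), the CCAAT box (CCAAT) and the TATA box (TATAAA), each on both strands; a full CRE also holds the core. Windows of 250 bases before the RefSeq start were found for 8 of the 10 genes, and Klf10 and Klf16 were not matched. The Klf4 window held 1 CRE core, whose first base lay at position -232 from the start, and 4 GC boxes. The Klf6 window held 4 CCAAT boxes, at positions -230, -200, -131 and -78, and 1 GC box, and no CRE core. Neither window held a CACCC box. Among all 32851 mouse windows of this length, 17.8% held the CRE core, 32.7% a GC box, 33.8% a CCAAT box and 52% a CACCC box. The shares are not matched for base content: G and C made up 74% of the Klf4 window and 64.8% of the Klf6 window. The median over all windows was 52.4%. A GC box was found in 7 of the 8 windows. The CRE core was also found upstream of Klf2, Klf9 and Klf13, and the full CRE, present in 1.55% of all windows, upstream of none of the 8. A match of letters is a description of the window and not of binding.

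Levels are given as CPM, the counts of a gene per 1000000 counts of its library, with libraries scaled by TMM over all 12. The CGRP effect is the log2 difference, CGRP minus saline, from limma-voom on the 6 libraries of a cell type, with p-values adjusted by Benjamini–Hochberg over all genes tested and a threshold of 0.05. A gene is called when it passes this threshold. In these bulk samples, fewer cells of a type and less RNA per cell cannot be told apart.

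The most abundant neutrophil marker was S100a8, and the 11 neutrophil markers summed to between 157464 and 236199 CPM in the neutrophil libraries and between 302 and 446 CPM in the macrophage libraries. The 11 monocyte and macrophage markers, led by C1qb, summed to between 9598 and 11498 CPM in macrophages. In the neutrophil libraries they summed to between 899 and 1091 CPM, led by Ccr2 with saline and by Cd68 with CGRP. Of these 11 markers, 9 were called higher in saline macrophages than in saline neutrophils, beside 32.5% of all genes tested called higher and 35.4% called lower. Cx3cr1 was called lower (log2 difference -0.49, adjusted p = 0.00206, limma-voom), and Ccr2 was lower without overlap, at 284 ± 8.63 against 317 ± 10.3 CPM (SD, n = 3 each).

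Klf4 was lower in every neutrophil library with CGRP than in every saline library. The saline libraries had 47.4, 52.8 and 50.1 CPM (150, 172 and 139 counts), and the CGRP libraries had 34.5, 28.2 and 24.6 CPM (106, 96 and 56 counts). The level with CGRP was 58.0% of that with saline, from 50.1 ± 2.68 to 29.1 ± 5.02 CPM (SD, n = 3 each). The log2 difference was -0.76, with a standard error of 0.15, a 95% interval from -1.07 to -0.46 and an adjusted p of 0.00402 (limma-voom). Klf4 stayed past the threshold without any one library, with log2 differences between -0.88 and -0.68. With counts thinned to the smallest library it did not pass (adjusted p = 0.0668, limma-voom, log2 difference -0.61).

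Klf4 was the only gene called among the 9 of the 10 genes that were tested in neutrophils; the counts of Klf16, between 5 and 12, were too low to test there. As background, 1.02% of the 9819 genes tested in neutrophils were called lower and 1.51% higher. Klf4 and Klf10 were the 2 of these 9 genes whose groups did not overlap, both lower with CGRP, and 9.65% of all genes tested were lower in this way. The monocyte and macrophage markers moved in the same direction as Klf4 in neutrophils. Their sum was 1085 ± 7.97 CPM in saline libraries and 957 ± 85.6 CPM in CGRP libraries (SD, n = 3 each), which is 88.2% of saline, and the groups did not overlap. Some other marker sums were also lower on average. The neutrophil markers went from 195374 ± 37353 to 173448 ± 23276 CPM (88.8% of saline), with overlapping groups. The T and NK cell markers were at 84.5% of saline, the eosinophil and basophil markers at 95.2% and the erythroid markers at 97.3%. Nkg7 made up most of the T and NK cell sum, with means of 103 CPM with saline and 82.8 CPM with CGRP. Of the 3 T and NK cell markers tested, 2 had log2 differences below 0, and Klrd1 was above 0 (5.87 and 10.3 CPM). The sums of B cell markers (106%), platelet and megakaryocyte markers (102%) and dendritic cell markers (129%) were higher. Of the 10 tested monocyte and macrophage markers, Ccr2, a chemokine receptor, was called (log2 difference -0.49, adjusted p = 0.00134, limma-voom). Cx3cr1 and Adgre1 were also lower without overlap (adjusted p of 0.0843 and 0.0934, limma-voom). The part of monocytes in the fall of Klf4 was not tested.

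In macrophages Klf4 counts were low. Saline libraries had 5.45, 4.79 and 6.11 CPM (19, 16 and 17 counts) and CGRP libraries 5.64, 2.96 and 4.53 CPM (18, 8 and 9 counts), and the groups overlapped. The log2 difference was -0.31, with a 95% interval from -1.10 to 0.48 (adjusted p = 0.711, limma-voom), which includes both no change and the size seen in neutrophils. The CGRP effect on Klf4, tested as macrophages minus neutrophils over the 12 libraries, differed by 0.47 with an interval from -0.34 to 1.28 (adjusted p = 0.691, limma-voom). A difference between the cell types was therefore not shown for Klf4.

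**Figure D1:**
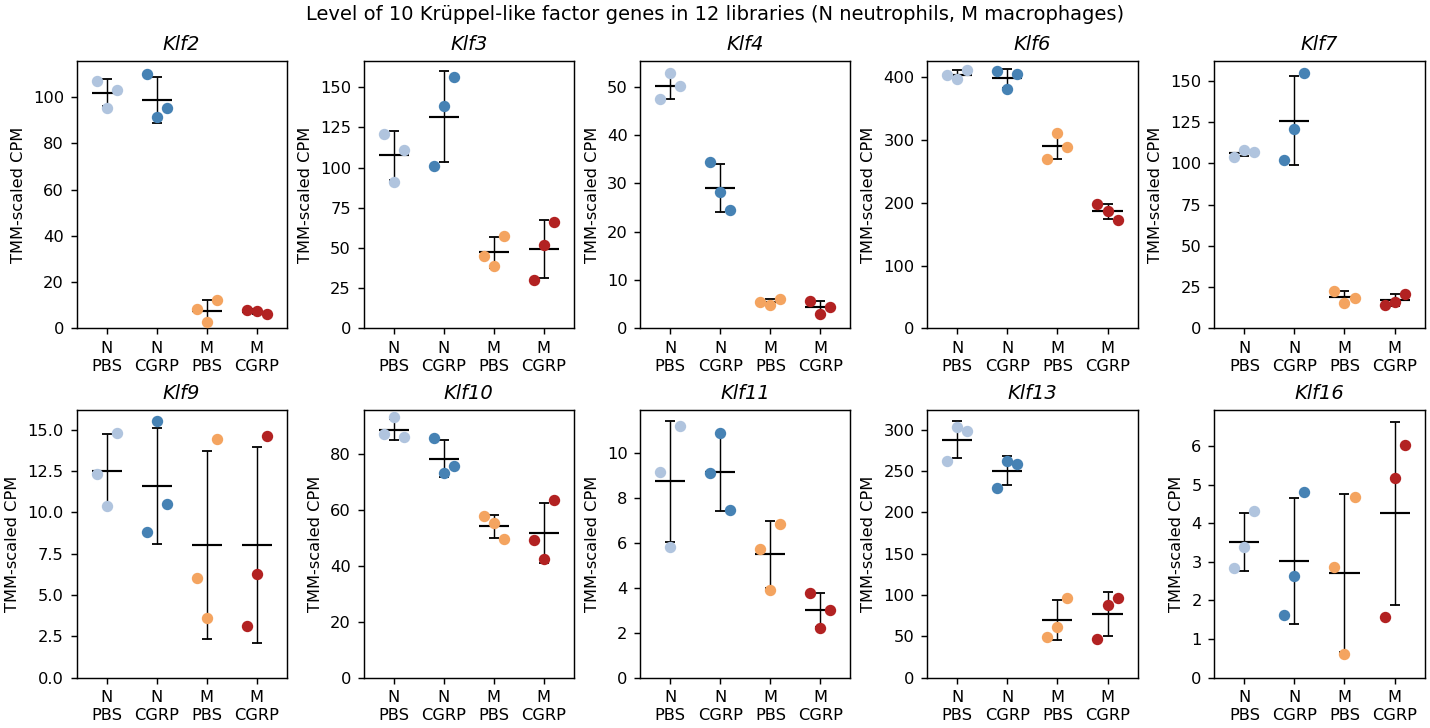
Level of each of the 10 genes in TMM-scaled CPM on the vertical axis (linear, from 0) in the 4 groups; each point is a library, each horizontal line a group mean and each error bar 1 SD (n = 3). Klf4 fell from 50.1 to 29.1 CPM in neutrophils and Klf6 from 289 to 186 CPM in macrophages, with no overlap between saline and CGRP.

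Klf6 was lower in every macrophage library with CGRP than in every saline library. Saline libraries had 269.7, 310.2 and 288 CPM (940, 1035 and 802 counts), and CGRP libraries had 198, 187 and 173 CPM (632, 506 and 344 counts). The level with CGRP was 64.3% of that with saline, from 289 ± 20.3 to 186 ± 12.5 CPM (SD, n = 3 each). The log2 difference was -0.63, with a standard error of 0.13, a 95% interval from -0.90 to -0.36 and an adjusted p of 0.00530 (limma-voom). It passed the threshold in all 10 alternative settings, with log2 differences between -0.68 and -0.61, and without any one library.

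Klf6 was the only one of the 10 genes called in macrophages, where 3.97% of the 9393 genes tested were called lower and 3.46% higher. Klf6 and Klf11 were the 2 genes whose groups did not overlap, both lower with CGRP, against 12.5% of all genes tested. The neutrophil markers in the macrophage libraries summed to 344 ± 46.7 CPM in saline libraries and 429 ± 15.0 CPM in CGRP libraries (SD, n = 3 each), and the monocyte and macrophage markers to 9784 ± 236 and 10816 ± 772 CPM. Among the latter, Ccr2 (log2 difference -0.81, adjusted p = 4.80e-04, limma-voom) and the fractalkine receptor gene Cx3cr1 (-1.36, adjusted p = 1.43e-04) fell. The log2 differences of the other 9 of these 11 markers were above 0, and 0 were called higher. C1qa (0.42) and C1qb (0.19) were higher without overlap. The part of cell composition in the fall of Klf6 was not tested.

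In neutrophils Klf6 did not move with CGRP beyond the spread. Saline libraries had 403, 397 and 411 CPM and CGRP libraries 409, 380.4 and 404 CPM. The log2 difference was -0.01 and its 95% interval, from -0.17 to 0.15, left out the fall measured in macrophages (adjusted p = 0.986, limma-voom). The CGRP effect on Klf6 was lower in macrophages than in neutrophils by 0.61 on the log2 scale (difference -0.61, standard error 0.14, interval -0.90 to -0.32, adjusted p = 0.0178, limma-voom over 12 libraries). Klf6 was the only one of the 10 genes called for this difference, where 2.36% of the 10694 genes tested were called, 1.15% lower and 1.21% higher. The log2 value lay between -0.69 and -0.56 without any one library, but the adjusted p rose above the threshold in 5 of the 12 fits. These were the fits without saline neutrophil replicate 1 (0.0539) or 2 (0.0585), CGRP neutrophil replicate 1 (0.0503), and CGRP macrophage replicate 2 (0.0501) or 3 (0.0624).

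**Figure D2:**
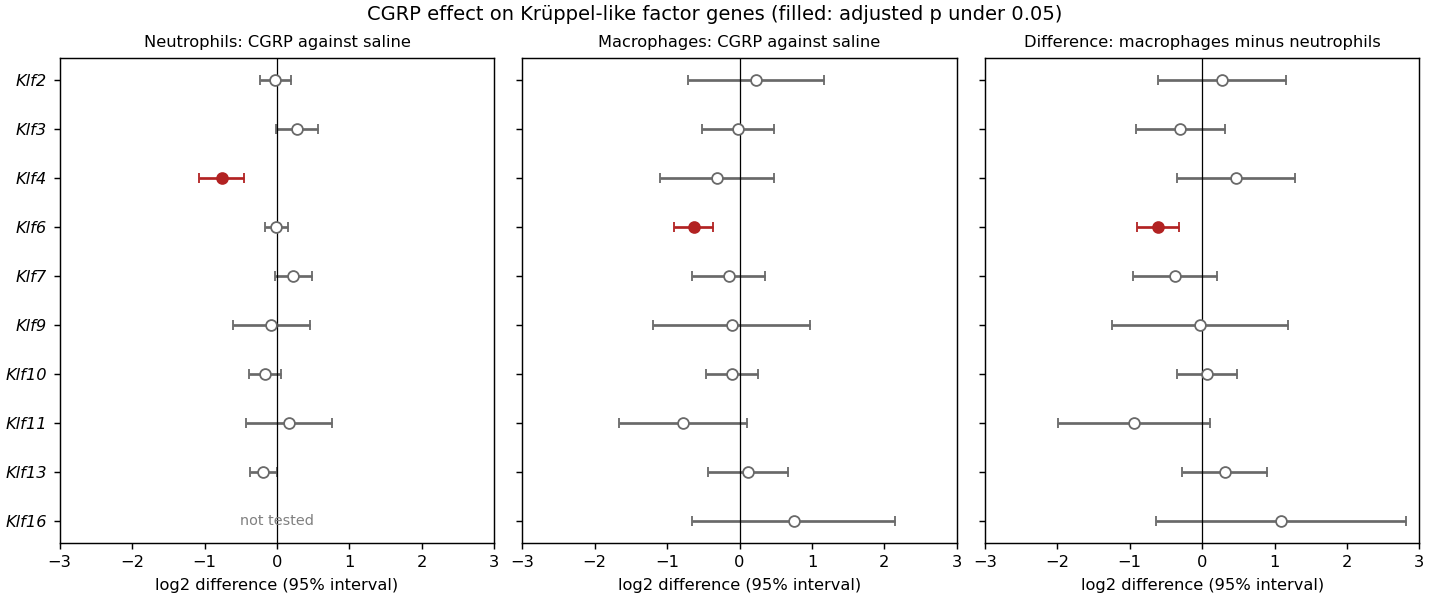
Log2 difference between CGRP and saline for each gene (points, with 95% intervals from limma-voom) in neutrophils (left) and macrophages (middle), and the difference of the 2 effects, macrophages minus neutrophils (right); filled points have an adjusted p under 0.05. Klf4 in neutrophils (-0.76), Klf6 in macrophages (-0.63) and Klf6 for the difference (-0.61) are filled, and Klf16 was not tested in neutrophils.

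The other activators were not called in either cell type. Klf2, which in lymphocytes and endothelium is known to maintain quiescence, had 107, 95.5 and 103 CPM in saline neutrophils and 110.2, 91.2 and 95.1 CPM with CGRP. Its log2 difference there was -0.03, with an interval from -0.24 to 0.19. In macrophages it had 8.32, 2.70 and 12.2 CPM with saline and 8.15, 7.76 and 6.04 CPM with CGRP, so that saline replicate 2, with 9 counts, stood low and the interval was wide (-0.71 to 1.17). Klf7, known for its part in axon growth, had 104, 108 and 107 CPM in saline neutrophils and 102, 121 and 155 CPM with CGRP. CGRP replicate 3 was high and replicate 1 was below the saline libraries, and the log2 difference was 0.22 (interval -0.03 to 0.48, adjusted p = 0.472, limma-voom). In macrophages the Klf7 log2 difference was -0.15 (interval -0.66 to 0.35).

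Klf3, the CtBP-linked repressor, had 121, 91.2 and 111 CPM in saline neutrophils and 101, 138 and 156 CPM with CGRP, and the groups overlapped through CGRP replicate 1. The log2 difference was 0.28 (interval -0.01 to 0.57, adjusted p = 0.421, limma-voom). Without CGRP neutrophil replicate 1 it was 0.47 with an adjusted p of 0.0374 (limma-voom), so that this library decided the call. In macrophages Klf3 had 45.3, 39.0 and 57.5 CPM with saline and 30.4, 51.7 and 66.4 CPM with CGRP, the lowest and the highest values both being CGRP libraries (interval -0.52 to 0.48).

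Among the genes of SIN3-linked factors, Klf10 and Klf13 had the narrowest intervals. Klf10, first described as a gene induced early by TGF-β, had 86.9, 93.0 and 86.1 CPM in saline neutrophils and 85.8, 73.3 and 75.8 CPM with CGRP. The groups were just apart, and the log2 difference of -0.17 was not called (interval -0.39 to 0.05, adjusted p = 0.559, limma-voom). Klf13, known as an activator of the chemokine gene Ccl5 in T cells, had 262, 303 and 299 CPM in saline neutrophils and 230.2, 262 and 259 CPM with CGRP, with a log2 difference of -0.19 (interval -0.37 to 0.00, adjusted p = 0.397, limma-voom). In macrophages the log2 differences were -0.10 for Klf10 (interval -0.46 to 0.26) and 0.12 for Klf13 (interval -0.43 to 0.67).

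The remaining 3 genes had low counts. Klf11, a close relative of Klf10, had 20, 13 and 19 counts in saline macrophages and 12, 6 and 6 in those given CGRP, or 5.49 ± 1.48 and 3.00 ± 0.772 CPM (SD, n = 3 each). The groups did not overlap and the level was 54.6% of saline, but the log2 difference of -0.78 had an interval from -1.66 to 0.10 and an adjusted p of 0.318 (limma-voom). In neutrophils Klf11 had 29, 19 and 31 counts in the saline libraries and 28, 37 and 17 in the CGRP libraries (log2 difference 0.17). Klf9, which glucocorticoids are known to induce, had 24 to 53 counts per neutrophil library and 10 to 40 per macrophage library. Its log2 differences were -0.08 (interval -0.61 to 0.45) and -0.11 (interval -1.19 to 0.97). Klf16 had between 2 and 14 counts in macrophages and a log2 difference of 0.75 with an interval from -0.65 to 2.14. In macrophages the intervals of Klf9 and Klf16 held both 0 and a fall as large as that of Klf6.

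Summed over the 10 genes, neutrophils had 1155, 1159.9 and 1198 CPM with saline and 1092, 1123 and 1192 CPM with CGRP. Macrophages had 474, 497 and 554 CPM with saline and 360.4, 409 and 454 CPM with CGRP, and these groups did not overlap. Without Klf6 the macrophage sums were 204, 187 and 266 CPM with saline and 162, 222 and 281 CPM with CGRP, and they did overlap. The median log2 difference of the genes tested was -0.03 in neutrophils and -0.11 in macrophages, beside a median of 0.00 over all genes tested in each.

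With saline alone, all 10 genes were lower in macrophages than in neutrophils by the fitted value, and 8 were called lower. Of the 10694 genes tested, 35.4% were called lower and 32.5% higher, and the median log2 difference was -1.05 for the 10 genes and -0.03 for all genes. For 7 of the 10, every saline macrophage library was below every saline neutrophil library, against 36.6% of all genes. Cell type, time in culture and medium changed together, so that their effects cannot be told apart.

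The activators Klf2, Klf4 and Klf7 differed the most by fitted value. Here and in the next paragraph, folds are ratios of mean CPM and log2 differences are fitted values, so they need not match. Klf2 was at 102 ± 5.81 CPM in saline neutrophils and 7.75 ± 4.79 CPM in saline macrophages (SD, n = 3 each), 13.1-fold lower (log2 difference -3.97, adjusted p = 4.88e-11, limma-voom). The log2 value was -3.34 without saline macrophage replicate 2. Klf4 was 9.19-fold lower (50.1 ± 2.68 against 5.45 ± 0.659 CPM, log2 difference -3.18, adjusted p = 1.25e-10). Klf7 was 5.63-fold lower (106 ± 2.35 against 18.9 ± 3.86 CPM, log2 difference -2.50, adjusted p = 6.14e-11). Klf6 was the least different of the called genes, with 404 ± 7.32 against 289 ± 20.3 CPM, or 1.39-fold (log2 difference -0.48, adjusted p = 1.53e-04).

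Of the repressor-linked genes, Klf13 was 4.16-fold lower (288 ± 22.7 against 69.2 ± 24.3 CPM, log2 difference -2.12), Klf3 2.28-fold (log2 difference -1.20) and Klf10 1.64-fold (log2 difference -0.71), with adjusted p-values of 2.64e-09, 2.08e-05 and 7.38e-05 (limma-voom). Klf9 passed narrowly while its libraries overlapped (log2 difference -0.90, adjusted p = 0.0497), and it did not pass in 6 of 9 alternative settings or in 8 of the 12 fits without 1 library. Klf11 (-0.64, adjusted p = 0.0800) and Klf16 (-0.74, adjusted p = 0.278) did not pass.

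**Figure D3:**
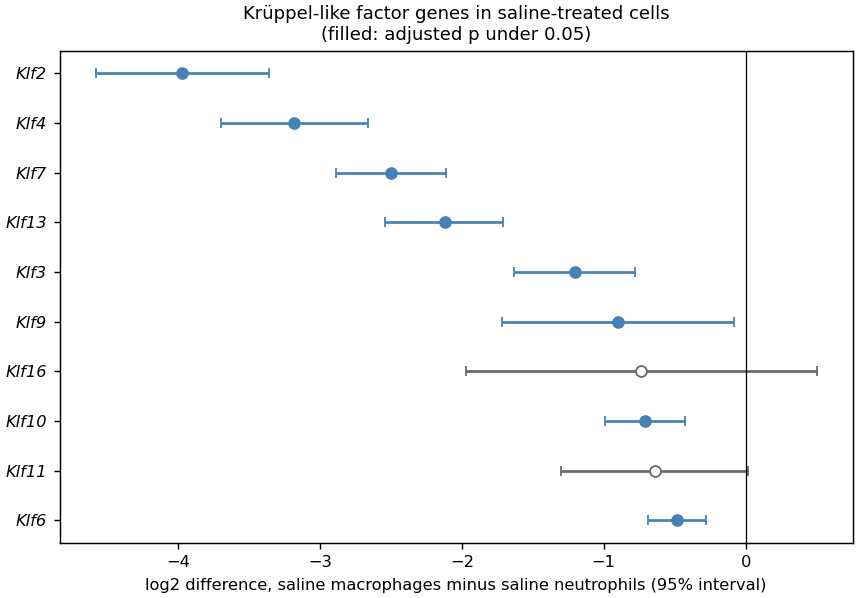
Log2 difference between saline macrophages and saline neutrophils (points, with 95% intervals from limma-voom over 12 libraries), 1 row per gene; filled points have an adjusted p under 0.05. The 10 points all lie below 0, from -3.97 for Klf2 to -0.48 for Klf6, and the intervals of Klf11 and Klf16 reach 0.

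The order of the 4 groups followed the cell type for most of the genes. For Klf2, Klf3, Klf7 and Klf13 both neutrophil groups lay above both macrophage groups, with the saline and CGRP groups of a cell type overlapping. For Klf4 the order was saline neutrophils, CGRP neutrophils, saline macrophages and CGRP macrophages, where the first 3 were apart and the last 2 overlapped. Klf6 had the same order of means, but its neutrophil groups overlapped and its macrophage groups were apart. Klf10 followed the order of Klf4, from 88.7 ± 3.76 CPM in saline neutrophils to 51.7 ± 10.7 CPM in CGRP macrophages. Klf9 and Klf16 had no neighbouring groups apart, and of Klf11 the macrophage groups alone were apart.

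The rest of the family was mostly silent. Of 7 further Klf genes, Klf12, Klf14 and Klf17 had 0 counts in the 12 libraries, which with a floor of 3 counts allows up to between 0.861 and 1.51 CPM in a library (counting error only). Klf15 had at most 1 count and Klf8 at most 6. Klf1, the erythroid factor, had 29.7, 28.9 and 25.6 CPM in saline neutrophils (94, 94 and 71 counts) and 38.0, 34.0 and 30.7 CPM with CGRP (117, 116 and 70 counts), so that every CGRP library was above every saline library in CPM. It had at most 4 counts in any macrophage library. The erythroid markers, led by the globin gene Hbb-bs, summed to between 5773 and 7381 CPM in the neutrophil libraries and between 19.6 and 27.0 CPM in macrophages, and the part of erythroid cells in the Klf1 counts was not tested. Klf5, known mainly from epithelia, had between 60 and 115 counts in neutrophils and at most 2 in macrophages. Neither passed in neutrophils, adjusted or unadjusted, by limma-voom, nor by edgeR or DESeq2 (log2 difference 0.31 for Klf1 and 0.23 for Klf5), and neither was tested for CGRP in macrophages. Of the related Sp genes, 4 of 9 were tested (Sp1, Sp2, Sp3 and Sp4), none was called after CGRP in either cell type by limma-voom, edgeR or DESeq2 (0 at an unadjusted p under 0.05), and all 4 were called lower in saline macrophages, beside 35.4% of all genes tested.

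Genes that act with or on Krüppel-like factors were also counted, by the adjusted p and, where none passed, by an unadjusted p under 0.05, which 12.8% of all genes tested met in neutrophils and 19.8% in macrophages. Of 12 cofactor genes (CtBP, SIN3 and acetyltransferase partners among them), all were tested and none was called in either cell type by limma-voom, edgeR or DESeq2; at an unadjusted p under 0.05 there were 0 in neutrophils and 1 in macrophages, Sin3a. None of 10 tested genes of the MEK5–ERK5–MEF2 and FOXO pathways, which are known to drive Klf2 and Klf4, was called by any of the tools; at an unadjusted p under 0.05 there were 2 in neutrophils (Foxo1 and Mef2d) and 1 in macrophages (Mef2a). Of the ubiquitin ligases that act on these factors, 7 were tested in neutrophils and 5 in macrophages. Wwp1 alone was called, lower in macrophages, where 3.97% of all genes tested were called lower. In neutrophils Siah1b alone had an unadjusted p under 0.05, and edgeR and DESeq2 called 0 in these cells. Wwp1, whose protein is known to promote KLF2 and KLF5 degradation, went from 386 ± 32.5 CPM in saline libraries to 232 ± 39.3 CPM in CGRP libraries (SD, n = 3 each; log2 difference -0.75, adjusted p = 0.00368, limma-voom). Of 6 tested target genes of KLF2 and KLF4, 1 was called higher in neutrophils and 3 in macrophages, and none lower, beside 1.51% and 3.46% of all genes tested that were called higher. Cd14, which encodes an endotoxin co-receptor, rose in both cell types, with log2 differences of 0.79 in neutrophils (adjusted p = 1.74e-05) and 2.38 in macrophages (adjusted p = 5.40e-09). S1pr1, a sphingosine 1-phosphate receptor gene, rose in macrophages (log2 difference 0.74, adjusted p = 0.00723), as did the cell cycle inhibitor gene Cdkn1a (0.95, adjusted p = 2.21e-04). The medians of these targets were 0.12 and 0.74 on the log2 scale, beside 0.00 for all genes tested in either cell type. The list of targets was chosen with earlier results of these data known. The authors had also named Cd14 and S1pr1 among the genes that CGRP raised in these macrophages. The calls and medians of the targets are therefore a description of the list and not a test of KLF activity.

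Immediate early genes moved in both directions in macrophages. Of all genes tested, 1.51% were called higher and 1.02% lower in neutrophils, and 3.46% higher and 3.97% lower in macrophages. Of 11 tested in neutrophils, 3 rose and none fell: Fos (log2 difference 1.30, adjusted p = 1.69e-06), Dusp1 (0.41, adjusted p = 0.0249) and Junb (0.35, adjusted p = 0.0390, limma-voom). DESeq2 called 1 gene of this list in neutrophils, and limma-voom, edgeR and DESeq2 each called 9 in macrophages. Of 12 tested in macrophages, 6 rose (Btg2, Ier2, Ier3, Junb, Fos and Nr4a1, by between 0.73 and 1.39) and 3 fell. The 3 that fell encode transcription factors: Atf3 went from 250.5 ± 32.5 to 54.9 ± 10.3 CPM, Jun from 199 ± 34.9 to 56.2 ± 5.59 CPM and Egr2 from 81.3 ± 2.12 to 14.4 ± 2.16 CPM (SD, n = 3 each). Their log2 differences were -2.17, -1.80 and -2.46, with adjusted p-values of 5.61e-07, 2.92e-06 and 8.94e-07 (limma-voom). Heat shock genes, which respond to stress during handling, had no call by limma-voom, edgeR or DESeq2 among 5 tested in neutrophils and 4 in macrophages, and 0 at an unadjusted p under 0.05.

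**Figure D4:**
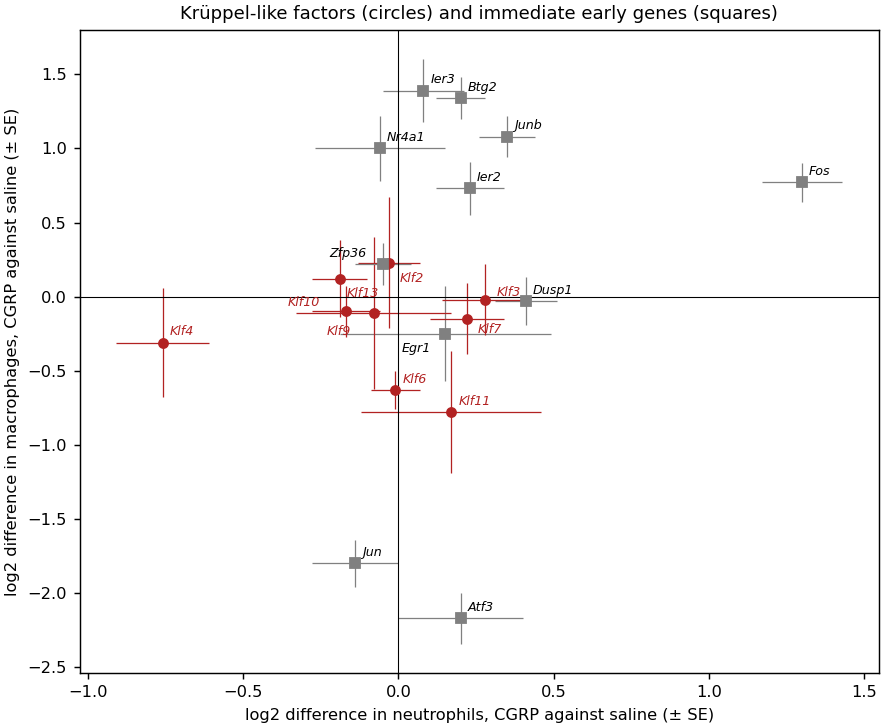
CGRP effect (log2 difference, CGRP minus saline, with bars of 1 standard error) in neutrophils on the horizontal axis and in macrophages on the vertical axis, for the Krüppel-like factor genes (circles) and immediate early genes (squares) tested in both cell types. Klf4 lies to the left (-0.76, -0.31) and Klf6 below 0 on the vertical axis only (-0.01, -0.63), while Jun and Atf3 lie lower, at -1.80 and -2.17 in macrophages.

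The genes whose pattern was most like that of the 2 called genes were found by Pearson's correlation of log2 CPM across libraries, as a description. The libraries of a cell type share their treatment groups, between which Klf4 or Klf6 itself differed, so genes chosen in this way differ between the groups by construction. Over the 6 neutrophil libraries, Klf4 was most like Arhgap39 (r = 0.995), Cib2 (0.993), Zfp62 (0.991), Ramp1 (0.990) and Lpl (0.990). Ramp1 encodes the CGRP co-receptor and had a log2 difference of -0.46, and Lpl, the lipoprotein lipase gene, one of -1.48. Over the 6 macrophage libraries, Klf6 was most like Fabp4 (r = 0.992), Atf3 (0.992), Nek6 (0.990), Dok2 (0.989) and Ss18l2 (0.989). Fabp4, which encodes a fatty acid carrier, had a log2 difference of -1.19. Over all 12 libraries, where the cell type weighs most, Klf4 was most like Ccdc180 (0.987), Ogfrl1 (0.987), Lcp1 (0.986), Fgl2 (0.985) and Cdca8 (0.984), and the genes most like Klf6 included Cdca7 (0.984), Usp2 (0.983), Bid (0.981) and Zwilch (0.981).

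The reads were primed at the poly(A) tail, so that sequence near the 3′ ends decides which gene a count goes to. For Klf2, Klf4, Klf6, Klf9, Klf11 and Klf16 no stretch of 31 bases in the last 500 bases of their transcripts occurred in another gene's transcripts on the same strand, and for Klf3, Klf10 and Klf13 between 0.563% and 3% did. Klf7 overlaps the opposite-strand gene Gm26649, which shares 25.3% of these stretches in reverse and had at most 7 counts in a library. Klf3 overlaps C230096K16Rik on the same strand, which had at most 29 counts. The strand setting of the counting was not given in the sources used here, so reads of Klf7 and its opposite-strand partner may have been mixed.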

How the data were processed

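The authors primed RNA at the poly(A) tail with unique molecular identifiers, aligned reads to GRCm38 with STAR and counted them with featureCounts after removing PCR copies; the deposited values are whole-number counts per gene, a table per cell type, with no further normalization. Annotation release and strand setting were not given in the sources used here. Columns were matched to samples by name. Genes were kept by filterByExpr (edgeR 4.0.16) and tested with limma-voom and TMM (limma 3.58.1, R 4.3.3), two-sided, with Benjamini–Hochberg adjustment at 0.05: 9819 genes in the 6 neutrophil libraries, 9393 in the 6 macrophage libraries and 10694 in the 12-library fit for the difference between effects and the saline comparison. A floor of 3 counts was used. Named genes are the 10 members, the genes of the other lists called in a CGRP effect, and the 5 most alike genes, of which 1 is not reported here; markers and other list genes were named after their values were seen. The scripts were tested on simulated data. The alternatives comprised DESeq2 1.42.0, the quasi-likelihood test of edgeR, other scalings, filters and weights, thinning, a replicate block and leaving out each library. Members and lists were chosen with earlier results of these data known.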

Additional observations from a re-analysis of the deposited data

Results flagged for a closer look

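The CGRP effect on Klf6 differed between the cell types, which flagged it: the log2 difference was -0.01 in neutrophils and -0.63 in macrophages, and the difference of the effects was -0.61 (adjusted p = 0.0178, limma-voom over 12 libraries). All 3 CGRP macrophage libraries lay below all 3 saline macrophage libraries.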

How the results depend on the processing

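The falls of Klf4 in neutrophils and Klf6 in macrophages kept their direction under every alternative run. Klf4 passed in 9 of 10 settings and in all 6 fits without 1 library (highest adjusted p = 0.0350, limma-voom), Klf6 in 10 of 10 and 6 of 6 (highest 0.0384). With counts thinned to the smallest library, 0 Krüppel-like factor genes were called in neutrophils (limma-voom). The Klf6 difference between cell types passed in 9 of 9 settings and in 7 of 12 fits without 1 library. Over all genes, the count called in neutrophils (248) was 137 in a single fit over 12 libraries and 138 to 234 without 1 library, with 1 to 2 Krüppel-like factor genes; it was 138 without saline replicate 1 or 2 and 153 without CGRP replicate 2. The macrophage count (698) was 1406 with voomWithQualityWeights, 1050 in the 12-library fit and 347 to 765 without 1 library, the low values being 347 without saline replicate 1, 348 without CGRP replicate 2 and 439 without CGRP replicate 3. The count for the difference (252) was 520 with voomWithQualityWeights and 149 to 328 without 1 library, the lowest without saline macrophage replicate 1, with 0 to 1 Krüppel-like factor genes. In the saline comparison, 5 were called with at least 10 counts in every library, where fewer of them were tested. Library totals without TMM raised the share of calls that were higher from 59.7% to 70.1% in neutrophils, lowered it from 51.2% to 36.4% for the difference and from 46.6% to 37.7% in macrophages, turned the saline comparison from 3472 higher and 3791 lower to 3720 and 3441, and moved the median of all genes for the difference from 0.02 to -0.10 (log2).

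Log2 differences of genes that were not called changed sign as follows, and the cause was not tested. With library totals, Klf2 was 0.03 and Klf6 0.05 in neutrophils, and the difference for Klf10 was -0.05. In macrophages, Klf2 was -0.04 and Klf3 0.05 with edgeR, -0.06 and 0.06 with DESeq2, and with voomWithQualityWeights Klf3 was 0.14 and Klf9 0.16. The difference for Klf9 was 0.02 with edgeR, 0.06 with DESeq2, 0.02 with at least 10 counts, 0.19 with voomWithQualityWeights and 0.23 when thinned. Klf16 was 0.06 when thinned in the saline comparison. Without 1 library, neutrophil values ranged from -0.11 to 0.03 for Klf2, -0.03 to 0.02 for Klf6, -0.36 to 0.14 for Klf9 and -0.12 to 0.36 for Klf11. Macrophage values ranged from -0.40 to 0.63 for Klf2, -0.23 to 0.32 for Klf3, -0.31 to 0.01 for Klf7, -0.58 to 0.47 for Klf9, -0.23 to 0.03 for Klf10, -0.09 to 0.47 for Klf13 and -0.07 to 1.42 for Klf16. The difference ranged from -0.36 to 0.66 for Klf2, -0.51 to 0.06 for Klf3, -0.48 to 0.57 for Klf9 and -0.06 to 0.20 for Klf10, and the saline comparison from -1.24 to 0.06 for Klf16.

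The groups share replicate numbers, but the labels do not say that a number marks a mouse or a day, and the deviations of same-numbered libraries correlated by -0.03 to 0.07 in neutrophils and -0.12 to 0.17 in macrophages. In the fit with a replicate block, 254 genes were called in neutrophils, 905 in macrophages, 288 for the difference and 7369 in the saline comparison, with 1, 1, 1 and 8 Krüppel-like factor genes; Klf3 in macrophages was 0.03 and the difference for Klf9 0.05 with this block.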

Other observations

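Markers of other cell types in the neutrophil libraries gave these summed levels with saline and CGRP (mean ± SD, n = 3 each). Eosinophil and basophil markers were at 1040.0 ± 87.3 and 989.9 ± 84.5 CPM, platelet and megakaryocyte markers at 165 ± 1.89 and 167 ± 36.2, T and NK cell markers at 129 ± 10.6 and 109 ± 15.7, B cell markers at 114 ± 9.13 and 121 ± 5.21, and dendritic cell markers at 11.8 ± 1.60 and 15.2 ± 1.92. In macrophages, platelet and megakaryocyte markers were at 763 ± 187 and 791 ± 165 CPM and B cell markers at 32.4 ± 1.14 and 39.0 ± 1.53.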
